A study of Rattus norvegicus with 6 samples.

Results

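The response of rat liver to fat added to a high-sucrose diet was read from 4 of the 6 arrays of the series. The livers came from adult male Wistar rats fed for 5 weeks on diets of 2 protein levels, normal protein (NP) and high protein (HP), after 10 days of adaptation on the normal-protein diet. The diets compared were high sucrose with high fat (NP-HS-HF and HP-HS-HF) and high sucrose alone (NP-HS and HP-HS), paired by protein level, and the low-fat diets (NP and HP) made up the remaining arrays. Each array held a pool of liver RNA from 5 rats, so the comparison rests on 20 of the 30 rats and on 1 array per diet. The rats were killed 2 h after a calibrated meal, in the fed state. The comparison asks which liver transcripts differ when fat is added to sucrose, whatever the protein level. For each gene the mean of the 2 paired differences, HS-HF minus HS, is given on the log2 scale, and genes were described where both differences had the same sign. A log2 difference of 1 is a doubling. Paired differences in brackets are those of the NP pair and then of the HP pair. The pairs share no array. How much fat and sucrose each diet held is not given here.

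The arrays' tissue label fitted the hepatocyte markers: the mean level of 11 such genes lay between log2 12.87 and 12.92 on the 6 arrays, and albumin (Alb) stood at 13.85 and 13.78 on the NP-HS-HF and HP-HS-HF arrays, against 13.82 and 13.85 on the NP-HS and HP-HS arrays. In bulk liver, fewer cells of a type and less RNA per cell cannot be told apart.

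Dietary fat reaches the liver as chylomicron remnants and as fatty acids released by adipose tissue. Hepatocytes oxidise these fatty acids, esterify them for storage in lipid droplets or export them in lipoproteins, and fatty acids activate the nuclear receptor PPAR alpha, whose target genes serve uptake and oxidation. Dietary sucrose, by way of glucose and fructose, drives the synthesis of new fatty acids through the transcription factors ChREBP and SREBP1c, and polyunsaturated fatty acids are known to lower that programme. Pyruvate dehydrogenase, which commits carbohydrate carbon to oxidation or fat synthesis, is switched off by the pyruvate dehydrogenase kinases and on by their opposing phosphatases.

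No transcript passed the test. Of 20450 probe sets tested, 0 (0%) had a Benjamini-Hochberg adjusted p under 0.05 in limma's model of all 6 arrays, and the lowest adjusted p was 0.118. At an unadjusted p under 0.05 there were 1013 probe sets (4.95%), 512 higher (2.5%) and 501 lower (2.45%) with HS-HF, a share near the threshold itself. Both differences had the same sign in 10451 probe sets (51.1%), of which 5093 (24.9%) were higher and 5358 (26.2%) lower with HS-HF. Across probe sets, which do not vary independently, the NP and HP differences had a Pearson correlation of 0.057 and a Spearman correlation of 0.049. Single-array differences of 1.5-fold or more were found in 191 probe sets (0.934%) in the NP pair and 260 (1.27%) in the HP pair. They coincided in the same direction in 22 probe sets, 12 higher (0.0587%) and 10 lower (0.0489%), and in opposite directions in 19. At 1.2-fold the same-direction count was 313, 171 higher (0.836%) and 142 lower (0.694%), against 232 in opposite directions. At 2-fold it was 3, against 7 in opposite directions. The genes below are therefore described by their values, and none is a call. Without the NP-HS-HF array, 17 probe sets passed the test, among them Pdk4, Stc1, Hspb1 and Egln3, and 0 passed without any of the other arrays in turn. In that fit the HP-HS-HF array alone stands for HS-HF and is assumed to vary like the other diets, on 1 residual degree of freedom, so these 17 have no replicate check.

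Among the 11421 named genes tested, 5897 (51.6%) had the same sign in both pairs, 2821 (24.7%) higher and 3076 (26.9%) lower, with a median mean difference of -0.0035. At an unadjusted limma p under 0.05 there were 468 named genes (4.1%), 238 higher (2.08%) and 230 lower (2.01%). Differences of 1.5-fold or more were found in 50 named genes (0.438%) in the NP pair and 79 (0.692%) in the HP pair. Differences of 1.2-fold or more in both pairs were found in 62 genes that were higher (0.543%) and in 40 that were lower (0.35%) with HS-HF. At 1.5-fold, 4 named genes were higher (0.035%), namely Pdk4, Lox, Stc1 and Acsm3, and 1 was lower (0.00876%), Lpin1. Against these 5, 4 named genes reached 1.5-fold in opposite directions in the pairs. Just inside that limit was Pdk4, at 0.59 in the NP pair. Just outside it were Ncam2, at -0.56 in the HP pair, and Pdp2, at 0.52 in each pair. Stc1 lay near the cut-off for low values, as given below.

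**Figure D1:**
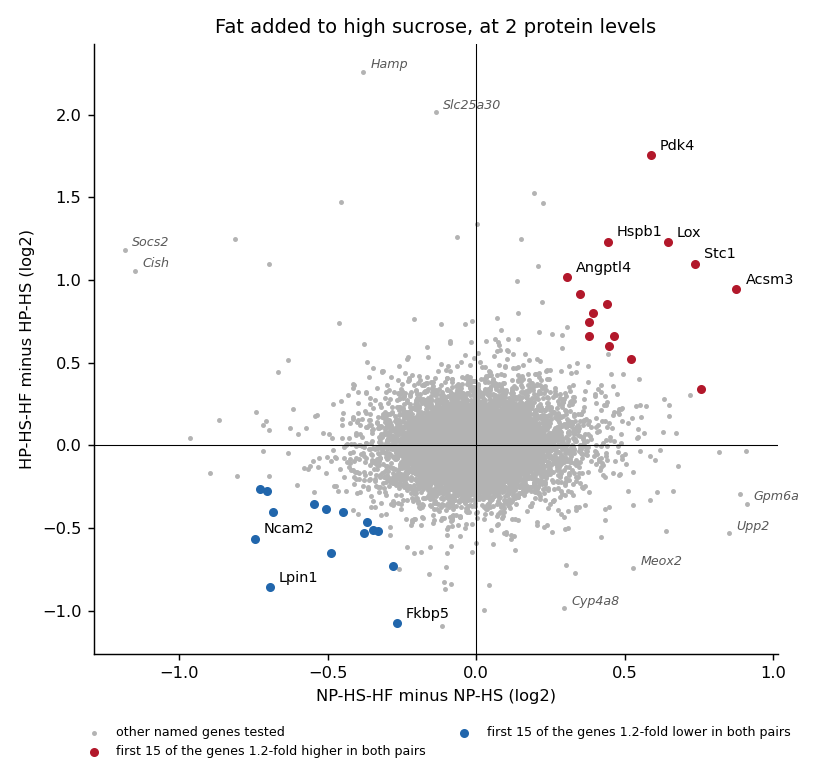
Each point is a named gene, with the NP-HS-HF minus NP-HS difference on the x axis and the HP-HS-HF minus HP-HS difference on the y axis, both in log2 units. Red and blue points are the 15 genes of each direction with the greatest mean difference among those at least 1.2-fold in both pairs; the grey cloud has no clear slope, and the Pearson correlation across named genes was 0.061.

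Pdk4 had the greatest mean difference of the genes that were 1.2-fold higher in both pairs. Pdk4, the kinase that inactivates pyruvate dehydrogenase, had log2 levels of 10.27 and 11.29 on the NP-HS-HF and HP-HS-HF arrays, against 9.68 and 9.54 on the NP-HS and HP-HS arrays. Both HS-HF arrays lay above both HS arrays and above both low-fat arrays (10.00 and 9.69), and the NP and HP differences were 0.59 and 1.76. The mean difference was 1.17 ± 0.299 (SE of the fit; limma adjusted p = 0.813), and it was 1.80 without the NP-HS-HF array and 0.55 without the HP-HS-HF array. Pdp2, a phosphatase that reactivates the same enzyme, differed by 0.52 in each pair, but its HS-HF levels of 7.94 and 8.65 overlapped its HS levels of 7.42 and 8.13. The kinase and the phosphatase act in opposite directions on the enzyme, and both differences were above 0.

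Acsm3, a mitochondrial medium-chain acyl-CoA synthetase, had nearly equal differences in the pairs. Its levels were 8.42 and 8.54 with NP-HS-HF and HP-HS-HF, against 7.54 and 7.60 with NP-HS and HP-HS, and 8.22 and 7.99 with the low-fat diets. The HS-HF arrays lay above the low-fat ones, and the HS arrays below them. The mean difference was 0.91 ± 0.107, with NP and HP differences of 0.88 and 0.94, and it had the lowest adjusted p of any named gene (0.422, limma). Angptl4, a secreted inhibitor of lipoprotein lipase and a PPAR alpha target, stood at 9.48 and 9.80 with NP-HS-HF and HP-HS-HF, against 9.17 and 8.78 with NP-HS and HP-HS. Its mean difference was 0.66 ± 0.168 and its NP and HP differences were 0.31 and 1.02, the larger of them in the HP pair.

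Lpin1 had the lowest mean difference of the genes that were 1.2-fold lower in both pairs. It encodes the phosphatidate phosphatase that makes diacylglycerol, a precursor of triglyceride, and it also acts as a transcriptional coregulator with PPAR alpha. Its levels were 9.71 and 9.62 with NP-HS-HF and HP-HS-HF, against 10.40 and 10.48 with NP-HS and HP-HS, while the low-fat arrays read 10.48 and 10.29. Both HS-HF arrays stood below all 4 others. The mean difference was -0.78 ± 0.0949, with -0.70 in the NP pair and -0.86 in the HP pair (limma adjusted p = 0.448).

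The promoters of the 4 fuel and lipid genes are shown because these genes lay among those with the greatest differences and have known roles in the use of fat and carbohydrate. Each is the 250 bases before the start site from RefSeq (GRCr8), 5′ to 3′ on the gene's own strand; capitals mark matches to the motifs searched. The windows are chr4:34568330-34568579 (minus strand) for Pdk4, chr1:183564402-183564651 (plus) for Acsm3, chr7:15258682-15258931 (minus) for Angptl4 and chr6:45108943-45109192 (minus) for Lpin1.
Pdk4: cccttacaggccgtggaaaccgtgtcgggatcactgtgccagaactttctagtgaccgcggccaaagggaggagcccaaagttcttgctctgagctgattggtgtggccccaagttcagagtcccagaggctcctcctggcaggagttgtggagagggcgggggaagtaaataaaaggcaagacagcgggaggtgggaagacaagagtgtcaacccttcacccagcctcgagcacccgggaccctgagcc
Acsm3: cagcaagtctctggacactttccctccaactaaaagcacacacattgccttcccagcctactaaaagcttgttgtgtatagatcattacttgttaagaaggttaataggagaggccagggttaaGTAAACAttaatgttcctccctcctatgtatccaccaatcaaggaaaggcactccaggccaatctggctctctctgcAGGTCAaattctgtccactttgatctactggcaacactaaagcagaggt
Angptl4: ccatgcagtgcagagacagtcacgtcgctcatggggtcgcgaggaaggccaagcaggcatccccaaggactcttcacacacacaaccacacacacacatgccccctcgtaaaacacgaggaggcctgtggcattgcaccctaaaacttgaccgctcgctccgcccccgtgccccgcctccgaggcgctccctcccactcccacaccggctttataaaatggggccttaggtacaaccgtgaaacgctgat
Lpin1: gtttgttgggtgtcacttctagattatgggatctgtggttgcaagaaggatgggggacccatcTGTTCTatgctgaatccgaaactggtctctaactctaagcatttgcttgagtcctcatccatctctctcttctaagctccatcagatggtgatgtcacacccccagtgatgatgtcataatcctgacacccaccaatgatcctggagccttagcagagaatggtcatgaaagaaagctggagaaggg
Searched on both strands were the forkhead motif GTAAACA, present in 3.21% of 33469 RefSeq promoter windows of the same length, the nuclear receptor core AGGTCA (14.06%), the glucocorticoid receptor core TGTTCT (17.52%), the E-box CACGTG (5.59%) and the cAMP response element TGACGTCA (1.59%). Acsm3 held GTAAACA at bases -126 to -120 and AGGTCA at -49 to -44 before the start, and Lpin1 held TGTTCT at -187 to -182. Pdk4 and Angptl4 held none of these letters in the window. Of the 30 genes named by rank, 22 had a promoter entry (9 higher, 13 lower), and the matches were spread over few of them: AGGTCA in 1 of 9 and 2 of 13, GTAAACA in 1 of 9 and 0 of 13.

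The other genes in the higher group had varied roles. Stc1, a secreted glycoprotein hormone, was at 5.50 and 6.24 with NP-HS-HF and HP-HS-HF, against 4.76 and 5.14 with NP-HS and HP-HS. Its mean difference was 0.92 ± 0.135, and its low-fat levels were 4.99 and 5.18. Only probe sets with a mean over all arrays above log2 5.14 were tested, and the HS-HF levels of Stc1 carried it past that value. Lox, the lysyl oxidase that cross-links collagen, was at 7.55 and 8.23 with HS-HF, against 6.90 and 7.00 with HS (mean difference 0.94 ± 0.244). The low-fat arrays read 5.41 and 6.67 for Lox, so the low-fat pools differed from each other by more than the paired HS-HF and HS pools at NP. The mean difference of Lox was 1.38 without the NP-HS array and 0.50 without the HP-HS array. Hspb1, a small heat-shock protein, was at 8.69 and 9.57 with HS-HF, against 8.24 and 8.34 with HS, with NP and HP differences of 0.44 and 1.23. These 3 genes showed no overlap between the HS-HF and HS arrays. Rab30, a Golgi GTPase (0.65 ± 0.117), Tex36 (0.60), Hnf4g, a nuclear receptor of the HNF4 family (0.52; 0.45 in the NP pair and 0.60 in the HP pair), and Adam11 (0.52) also had no overlap. The sodium-phosphate cotransporter Slc34a2 (0.63), the ephrin receptor Epha2 (0.56 ± 0.0878), the carbonic anhydrase Car1 (0.56) and the replication factor Mcm10 (0.55) had overlapping arrays, with levels that differed between NP and HP on the same background. Leaving out 1 array moved Slc34a2 between 0.20 (without HP-HS-HF) and 1.07 (without NP-HS-HF), Car1 between 0.23 (without HP-HS) and 0.89 (without NP-HS) and Mcm10 between 0.23 (without NP-HS-HF) and 0.87 (without HP-HS-HF). In all, 10 of the 15 higher genes had no overlap, where 14.2% of named genes had both HS-HF arrays above both HS arrays; those 15 were chosen on this contrast, so nothing is read from the share. The difference was larger in the HP pair for 14 of the 15.

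**Figure D2:**
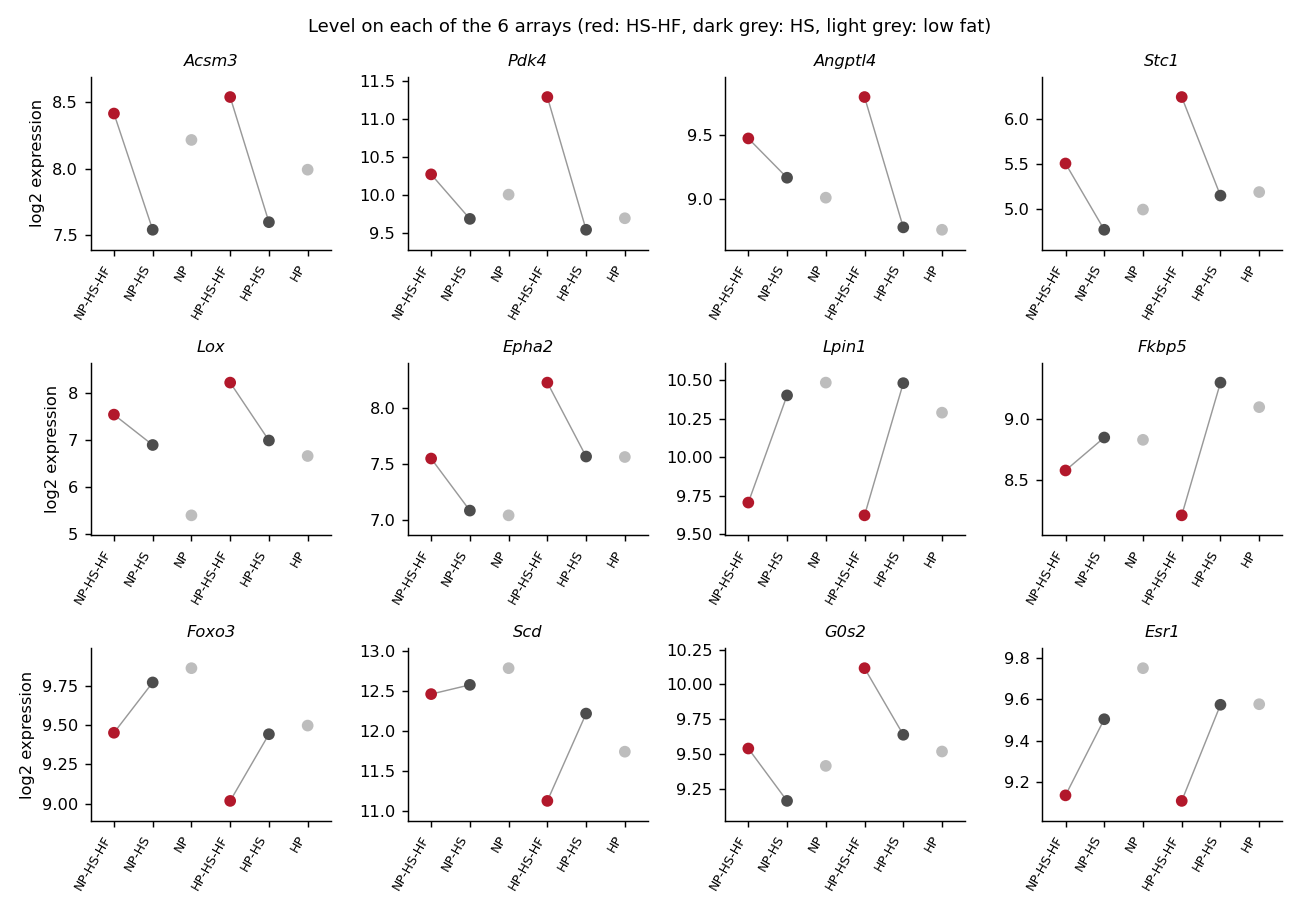
Log2 expression on each of the 6 arrays, grouped by protein level, for 12 genes (red HS-HF, dark grey HS, light grey low fat; lines join the paired arrays; the y axes differ and do not start at 0). Acsm3 and Lpin1 have similar steps in both pairs, whereas the step of Pdk4, Angptl4, Fkbp5 and Scd is mostly in the HP pair.

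The lower group had 15 of 15 genes with no overlap, where 15.3% of named genes had both HS-HF arrays below both HS arrays, and these too were chosen on this contrast. After Lpin1 came Fkbp5, the co-chaperone FKBP51 of the glucocorticoid receptor, at 8.58 and 8.22 with NP-HS-HF and HP-HS-HF, against 8.85 and 9.29 with NP-HS and HP-HS. Its mean difference was -0.67 ± 0.185, with -0.27 in the NP pair and -1.08 in the HP pair. Esr1, the estrogen receptor alpha, was at 9.14 and 9.11 with HS-HF, against 9.50 and 9.57 with HS, a mean difference of -0.42 ± 0.0917 and of like size in each pair (-0.37 and -0.47). Its second probe set differed by -0.26. Ccng2, an unconventional cyclin, differed by -0.46, and Tp53inp1, a p53-induced protein of autophagy, by -0.50 (-0.28 and -0.73). Fut8, which adds core fucose to glycoproteins (-0.54), Ctps1, which makes CTP (-0.45), the Wnt receptor Fzd6 (-0.43) and the adhesion molecule Ncam2 (-0.65) had other roles, as did Prss32 (-0.57), Marveld1 (-0.49), Tnfrsf9 (-0.45), Clec2dl1 (-0.43), Pla2g2d (-0.42) and Oas1b (-0.50). The HP pair gave the larger difference for 8 of these 15. Leaving out 1 array moved the mean difference by over 1.5 times for 15 of the 30 genes of both groups, 8 higher (Pdk4, Lox, Hspb1, Angptl4, Slc34a2, Tex36, Car1 and Mcm10) and 7 lower (Fkbp5, Ncam2, Tp53inp1, Oas1b, Marveld1, Ctps1 and Clec2dl1). Fkbp5, for instance, lay between -1.03 and -0.31, and Oas1b between -0.81 and -0.18. The limma adjusted p ran between 0.448 and 0.996 over the lower group and between 0.422 and 0.993 over the higher one.

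Genes of lipid metabolism, taken by list, are described by how many members had the same sign in both pairs. Of the 21 tested genes of fatty acid synthesis, 0 passed the test. In both pairs 3 were higher and 9 lower, where 24.7% and 26.9% of all named genes were. The median mean difference was -0.066 (-0.015 in the NP pair and -0.14 in the HP pair). Scd, the stearoyl-CoA desaturase, was at 12.46 and 11.13 with NP-HS-HF and HP-HS-HF, against 12.58 and 12.22 with NP-HS and HP-HS. That is a difference of -0.12 in the NP pair and -1.09 in the HP pair. Acaca, the acetyl-CoA carboxylase that makes malonyl-CoA, differed by -0.28 (-0.08 and -0.49), Me1, the malic enzyme that supplies NADPH, by -0.26 (-0.32 and -0.19), and the liver pyruvate kinase Pklr by -0.23 (-0.24 and -0.22). Fasn, the fatty acid synthase, differed by -0.06 (0.02 and -0.14), and Pnpla3, a lipid droplet acylhydrolase, went the other way at 0.23. The HS-HF and HS arrays overlapped for Scd, Acaca, Me1 and Pklr, and their HP arrays were lower than their NP arrays on either diet.

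Lipid droplet and fat uptake genes were higher in both pairs for 7 of 24 and lower for 4, with a median of -0.005. G0s2, an inhibitor of adipose triglyceride lipase that favours stored fat, was at 9.54 and 10.12 with HS-HF, against 9.16 and 9.64 with HS, a mean difference of 0.43 ± 0.126. Plin2, a coat protein of hepatic lipid droplets, differed by 0.36 (0.16 in the NP pair and 0.55 in the HP pair), its relative Plin1 by 0.21 and Cidec, a droplet-fusing protein, by 0.18. Of 12 triglyceride assembly genes 3 were higher in both pairs and 4 lower, with a median of 0.0003 whose sign turned under 3 of 5 alternative settings; Lpin1 had the greatest size, and Gpat3 and Gpam, acyltransferases of the first step, were each at 0.17. Neither list leaned one way, beside the 24.7% of named genes higher and 26.9% lower in both pairs.

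Of 35 genes of fatty acid oxidation, ketogenesis and PPAR alpha targets, 13 were higher in both pairs and 9 lower. Of all named genes, 24.7% were higher and 26.9% lower. The list's median was -0.004, although the medians of the NP and HP pairs taken alone were 0.003 and 0.007. Beyond Pdk4 and Angptl4, Acaa2, the last enzyme of mitochondrial beta-oxidation, differed by -0.26 (-0.13 and -0.39) and Vnn1, a pantetheinase, by -0.25 (-0.31 and -0.19). Cpt1a, the gate of fatty acid entry into mitochondria, differed by 0.07 (0.03 and 0.11). The list held genes on both sides of 0, and its highest values were those of Pdk4 and Angptl4.

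**Figure D3:**
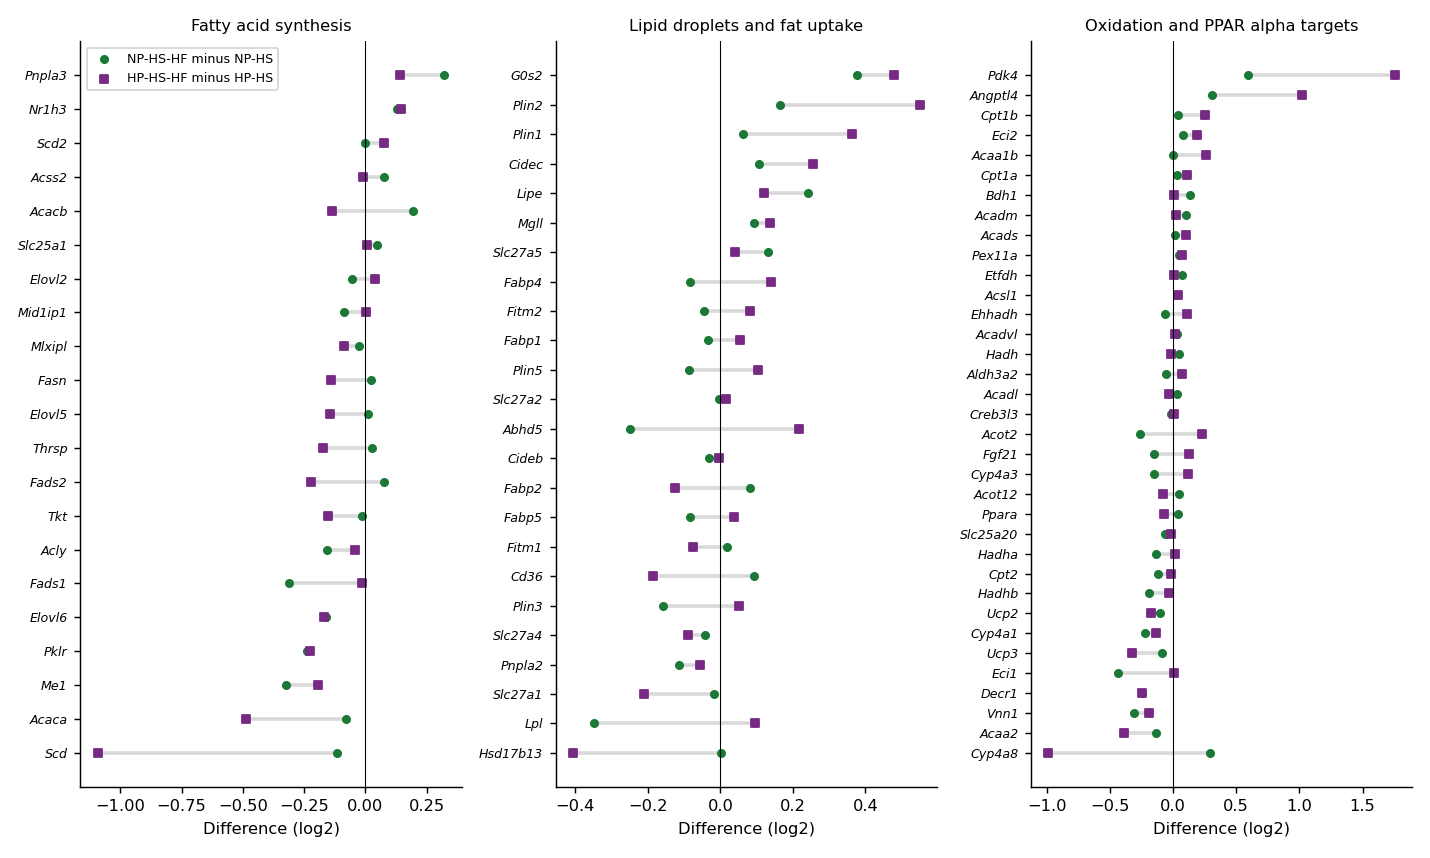
Each line is a gene, with the NP-HS-HF minus NP-HS difference (green circles) and the HP-HS-HF minus HP-HS difference (purple squares) in log2 units, for fatty acid synthesis, lipid droplets and oxidation. Scd and Acaca have their low values in the HP pair, and Pdk4 and Angptl4 stand apart from the other oxidation genes.

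Of 21 genes of cholesterol synthesis, 9 were higher in both pairs and 3 lower, where 24.7% and 26.9% of all named genes were. The same shares stand beside the bile acid and lipoprotein counts below. The medians of the cholesterol list were 0.096 in the NP pair and 0.015 in the HP pair. Sqle, squalene epoxidase, differed by 0.32 (0.24 and 0.40), the farnesyl diphosphate synthase Fdps by 0.20 and the sterol reductases Dhcr7 by 0.18 and Tm7sf2 by -0.24. Bile acid and sterol transport genes numbered 9 higher and 6 lower of 24. Abcb4, the canalicular phospholipid flippase, differed by 0.28 and Cyp7b1, an oxysterol hydroxylase, by 0.22, while Cyp7a1, the rate-limiting enzyme of bile acid synthesis, had 0.19 in the NP pair and -0.35 in the HP pair. Of 16 lipoprotein genes 6 were higher and 3 lower in both pairs.

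The lists of carbohydrate, hormone and amino acid metabolism were likewise mixed. For comparison, 24.7% of all named genes were higher in both pairs and 26.9% lower, so 51.6% had the same sign. G6pc1, the glucose-6-phosphatase that releases glucose, was at 11.81 and 12.18 with HS-HF, against 11.69 and 11.71 with HS (mean difference 0.30). In the same list Foxo1, a forkhead factor that induces gluconeogenesis, differed by -0.22, the glycogen-targeting phosphatase subunit Ppp1r3b by -0.21 and the glucose-6-phosphate transporter Slc37a4 by -0.16, and 6 of 15 genes were higher and 4 lower in both pairs. Igfbp1, an insulin-repressed binding protein of insulin-like growth factors, was at 10.83 and 10.91 with HS-HF, against 10.55 and 10.62 with HS (0.29; 0.28 and 0.29 in the pairs). Foxo3, a forkhead factor that insulin signalling excludes from the nucleus, was at 9.45 and 9.02 with HS-HF, against 9.77 and 9.44 with HS, a mean difference of -0.37 ± 0.0804 with overlapping arrays. The sestrin Sesn1 differed by -0.30. Over the list of 18 insulin and fed-state genes 6 were higher, 6 lower and 6 of opposite sign. Gldc, a glycine-cleavage enzyme, differed by 0.44 (0.29 and 0.59), but of 44 amino acid breakdown genes 27 had opposite signs in the pairs. In the integrated stress response, Atf3 (0.57; 0.14 and 0.99) and Nupr1 (-0.51; -0.26 and -0.75) pointed in opposite directions, and Asns, asparagine synthetase, differed by -0.31. Of the clock genes, Bmal1, a core activator, was at 6.65 and 6.59 with HS-HF, against 6.24 and 6.25 with HS (0.38 ± 0.129); 5 of 15 clock genes were higher in both pairs and 2 lower.

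Genes of xenobiotic metabolism had a median of 0.084 over 32 phase I genes. Of these, 14 were higher in both pairs and 6 lower, where 24.7% and 26.9% of all named genes were. Cyp1a1, an aryl hydrocarbon receptor target, was at 6.06 and 6.83 with HS-HF, against 5.90 and 5.58 with HS, so 0.15 in the NP pair and 1.25 in the HP pair. Nr1i3, the constitutive androstane receptor, differed by 0.28 and Cyp3a9, a drug-metabolising cytochrome P450, by 0.25. Of 31 conjugation and NRF2 target genes 12 were higher in both pairs and 1 lower, where 24.7% and 26.9% of all named genes were. The other 18 had opposite signs, and the list medians were 0.084 in the NP pair and -0.042 in the HP pair. Nqo1, a quinone reductase, differed by 0.65 (0.21 and 1.09) and the aldo-keto reductase Akr7a3 by 0.37 (0.67 and 0.07). Heme oxygenase Hmox1 differed by 0.28, with 0.01 in the NP pair, and Ugt2b1, the 1 lower gene, by -0.24 (-0.16 and -0.33). Pericentral genes mark hepatocytes around the central vein. They were higher in both pairs for 6 of 16 and lower for 1, beside the same 24.7% and 26.9%. The list's highest mean difference, 0.60, belonged to a member whose pairs had opposite signs. Among members with the same sign in both pairs, the 4 greatest differences included Tbx3 (0.47) and the glutamate transporter Slc1a2 (0.41). The others were the ammonium transporter Rhbg (0.37) and Lect2 (0.30 in each pair). Periportal genes were higher in 2 and lower in 4 of 15.

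Ribosomal protein genes and hypoxia targets also had more members higher than lower. Of 67 ribosomal protein genes, 36 were higher in both pairs and 8 lower, where 24.7% of all named genes were higher and 26.9% lower, and the median was 0.044. Both HS-HF arrays lay above both HS arrays for 22 and below them for 4, where 14.2% and 15.3% of all named genes did so. Rps24, of the small subunit, was at 8.10 and 8.05 with HS-HF, against 7.88 and 7.73 with HS (0.27), and Rpl23, of the large subunit, differed by 0.21. Of 19 hypoxia targets 10 were higher in both pairs and 2 lower, beside the same 24.7% and 26.9% of all named genes. Their medians were 0.042 in the NP pair and 0.14 in the HP pair. Both HS-HF arrays lay above both HS arrays for 4 of them and below for 1, beside 14.2% and 15.3%. Egln3, a prolyl hydroxylase of the HIF pathway, had 0.20 in the NP pair and 1.52 in the HP pair, with levels of 6.50 and 8.83 with HS-HF, against 6.30 and 7.31 with HS; Ero1a, an oxidase of protein folding, differed by 0.35, Higd1a, a mitochondrial protein, by 0.32, and the carbonic anhydrase Car12 by -0.42.

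Macrophage and Kupffer cell markers were lower in both pairs for 13 of 18 tested and higher for 2. Of all named genes, 26.9% were lower and 24.7% higher in both pairs, shares that also stand beside the other marker counts below. The median was -0.14, with a median of -0.16 in each of the NP and HP pairs. Gpnmb, a lysosomal glycoprotein of macrophages, was at 7.53 and 7.49 with HS-HF, against 7.74 and 8.14 with HS (mean difference -0.43). Clec4f, a Kupffer cell lectin, was at 9.00 and 9.01 with HS-HF, against 9.19 and 9.34 with HS (-0.26). The scavenger receptor Marco differed by -0.27 (-0.20 and -0.35), Cd5l, a secreted macrophage protein, by -0.28 (-0.34 and -0.21) and Adgre1, an adhesion receptor of macrophages, by -0.19 (-0.19 and -0.20). Trem2, a lipid-sensing receptor of macrophages, went the other way at 0.28. The mean level of the 18 markers was 7.75 and 7.88 with HS-HF, against 7.86 and 8.03 with HS, and 7.75 and 7.96 with the low-fat diets. Of the 18 markers, 7 had both HS-HF arrays below both HS arrays and 2 had both above, where 15.3% and 14.2% of all named genes did so. Lymphocyte and neutrophil markers were higher for 2 and lower for 6 of 12 (median -0.019), endothelial markers higher for 4 and lower for 1 of 9, and stellate and matrix markers higher for 9 and lower for 2 of 20 (Rgs5 0.34 and the pericyte receptor Pdgfrb 0.29). Bile duct markers were higher for 3 and lower for 2 of 10, with medians of -0.074 in the NP pair and 0.12 in the HP pair. Among them the keratins Krt18 and Krt8, also present in hepatocytes, differed by 0.36 and 0.23, and Epcam and Anxa4 by -0.15 and -0.14.

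Interferon-stimulated genes were lower in both pairs for 14 of 28 and higher for 3, where 26.9% and 24.7% of all named genes were. The median was -0.13. In the NP pair 25 of the 28 were lower, with a median of -0.27. In the HP pair 14 were higher and 14 lower, and the median lay at 0 to 2 decimals. Ifi44l was at 6.62 and 6.56 with HS-HF, against 6.96 and 6.93 with HS (-0.36 ± 0.0826). Usp18, which removes ISG15 from proteins, was at 7.00 and 7.24 with HS-HF, against 7.90 and 7.41 with HS, and stood at 9.05 and 7.90 with the low-fat diets. Irf7, an interferon regulatory factor, was at 6.99 and 7.10 with HS-HF, against 7.43 and 7.37 with HS (-0.36). The mean level of the 28 genes was 7.07 and 7.19 with HS-HF, against 7.38 and 7.20 with HS, and 7.70 and 7.33 with the low-fat diets: the NP low-fat pool was the highest of the 6. Macrophage markers and interferon-stimulated genes both had medians below 0 in the NP pair; the part of the one in the other was not tested.

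**Figure D4:**
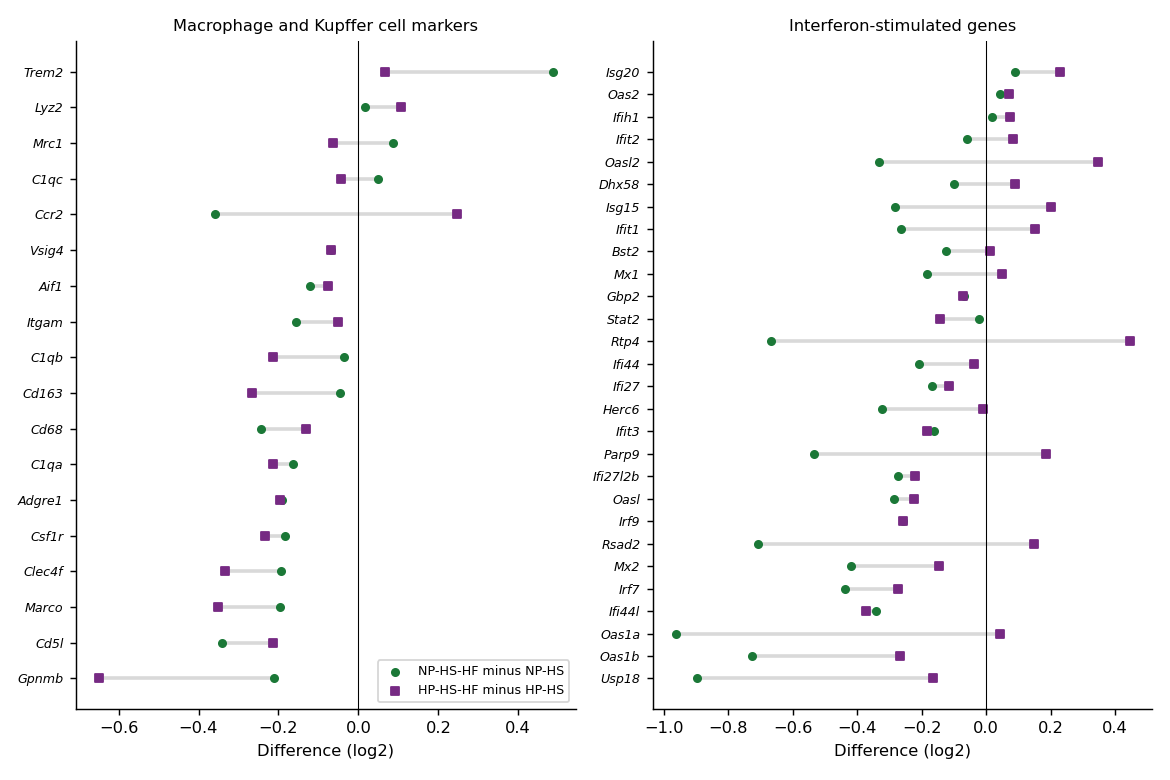
Differences in log2 units for 18 macrophage and Kupffer cell markers and 28 interferon-stimulated genes, with the NP pair in green circles and the HP pair in purple squares. Macrophage markers lie mostly below 0 in both pairs, whereas several interferon-stimulated genes, such as Oas1a, Rsad2 and Rtp4, lie below 0 in the NP pair and above it in the HP pair.

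Over the 36 lists, medians of the mean difference ran from -0.14 to 0.084, 19 above and 17 below 0. The pair medians shared a sign in 17 lists (11 above 0 and 6 below) and differed in 19. The sign of the median turned under at least 1 other scaling or filter for triglyceride assembly, lipid droplets, insulin signalling, the urea cycle, the integrated stress response and proteasome subunits.

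**Figure D5:**
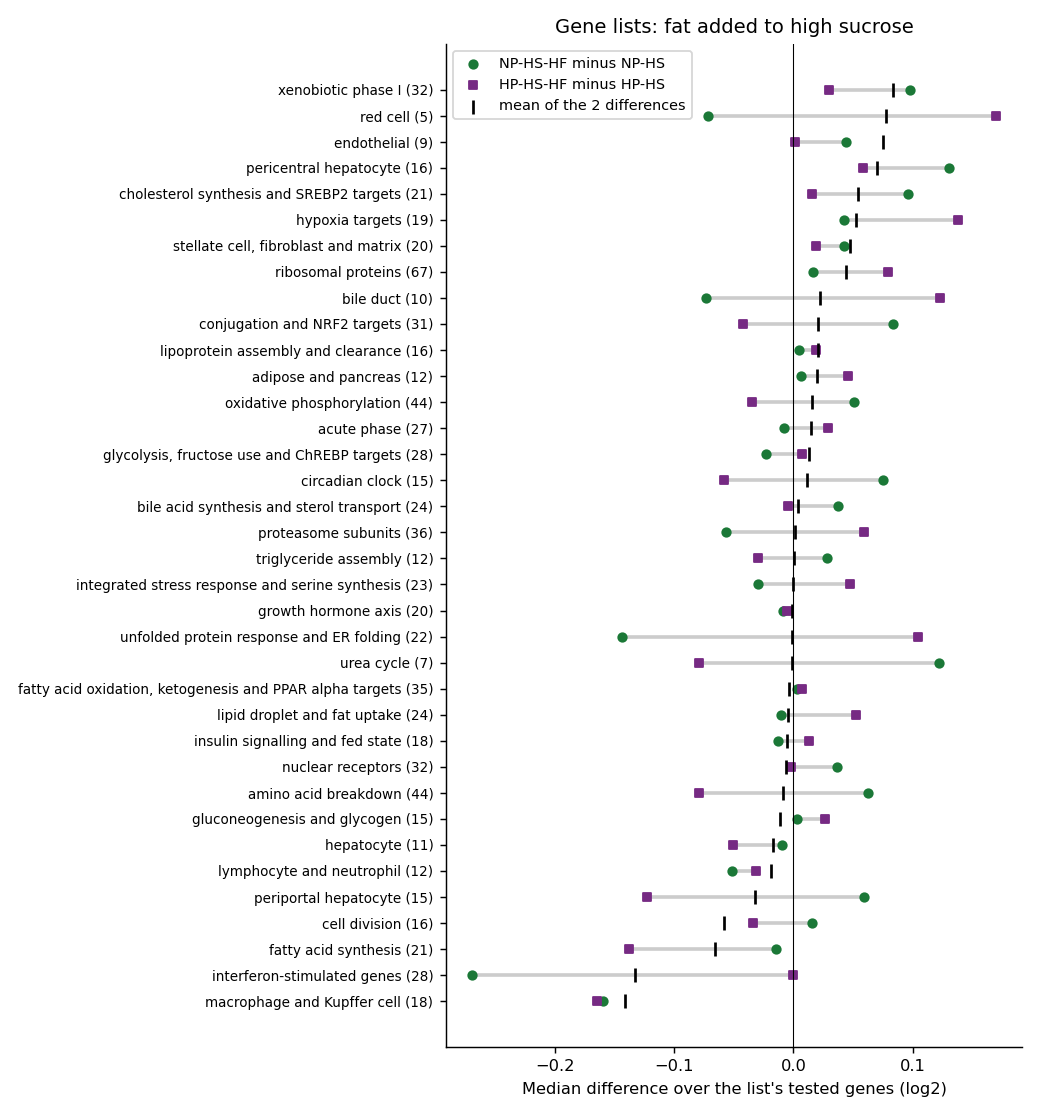
Median difference in log2 units over the tested genes of each list (number in brackets), with the NP pair as green circles, the HP pair as purple squares and the mean of the 2 differences as black bars. The lists at the foot, macrophage and interferon-stimulated, have medians near -0.14 and -0.13, and the order of the others is set by small values.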

How the data were processed

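The values were the deposited log2 expression values of 6 Affymetrix whole-transcript arrays, 1 per diet, each a pool of 5 rats. They were summarised by RMA, per the submitters' processing notes; its version is not given in the sources used here. Per the labels' protocols, RNA integrity numbers were at least 7.0. The source labels name mice, but the organism given is rat. Of 29214 probe sets, 15310 had 1 symbol in the platform annotation, 323 had several and 13581 were not listed; 15279 matched RefSeq. A gene with several probe sets was represented by that of highest mean. Probe sets with a mean above the 30th percentile (log2 5.14) were tested, 20450 in all, of which 8356 had no single symbol. The array medians lay within 0.033 of each other and array correlations between 0.9949 and 0.9964; the number of arrays limits the precision.

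limma 3.58.1 in R 4.3.3 fitted protein level and background to all 6 arrays, leaving 2 residual degrees of freedom, and the contrast was HS-HF minus HS; eBayes gave 4.37 prior degrees of freedom. With 1 array per diet, the error of the fit is how the diet differences vary between the 2 protein levels, low-fat arrays included. The SE and p-values thus do not measure the spread among arrays or rats of a diet. A difference that depends on protein level raises the SE. The fit was tested on simulated data. Genes were named as the first 15 by mean difference in each direction among those 1.2-fold in both pairs, up to 4 members of each of 36 lists, and 4 genes in each direction of opposite sign. The members and lists were chosen with earlier results of these data known. Fasn, Cpt1a, Cyp7a1, Oas1a, Rsad2 and Rtp4 are also given, chosen after their values were seen, and Alb as a marker. The macrophage markers Clec4f and Adgre1 are likewise given outside these rules. Alternatives were another normalization, filter, model and fold, and each array left out.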

Additional observations from a re-analysis of the deposited data

Results flagged for a closer look

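Of 11421 named genes, 5897 had the same sign in both pairs and nearly all others opposite signs, 71 of them with at least 1.2-fold in each pair. The 4 genes with the greatest gap between the pairs in each direction, 8 in all, are given here. The value given is the NP difference minus the HP difference (log2). The difference was not tested, since each diet had 1 array. It was 1.38 for Upp2, a uridine phosphorylase (0.85 in the NP pair and -0.53 in the HP pair). It was 1.28 for Cyp4a8, a fatty acid hydroxylase (0.30 and -0.99). It was 1.27 for Meox2 (0.53 and -0.74) and 1.27 for Gpm6a (0.91 and -0.35). In the other direction it was -2.64 for Hamp, the iron hormone hepcidin (-0.38 and 2.26), with levels of 9.34 and 9.20 on the NP-HS-HF and HP-HS-HF arrays, against 9.72 and 6.94 on the NP-HS and HP-HS arrays, so the HP-HS array alone was low. It was -2.37 for Socs2 (-1.18 and 1.18) and -2.20 for Cish (-1.15 and 1.06), both inhibitors of cytokine and growth hormone signalling. It was -2.15 for Slc25a30, a mitochondrial carrier (-0.14 and 2.02).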

How the results depend on the processing

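No probe set passed under quantile normalization (lowest limma adjusted p 0.224), median centring (0.0842), no filter (0.175), a filter at the 50th percentile (0.676), the 4 arrays alone (0.114), no protein term (0.477), a trended prior (0.124), a robust prior (0.118) or ordinary t statistics (0.485). Leaving out each array gave 0 to 17 probe sets; 17 (13 higher, 4 lower; lowest adjusted p 0.00839) came without the NP-HS-HF array, 9 of them named. That fit has 1 residual degree of freedom and a lone HS-HF array, which is assumed to vary like the other diets and has no replicate check. In it Pdk4 was at 1.80 (limma adjusted p = 0.0118), Stc1 at 1.14 (0.0414) and Hspb1 at 1.28 (0.0302). The count of probe sets at 1.5-fold in both pairs, 22, was 41 without a filter (34 opposite), 7 with the 50th-percentile filter (9 opposite), 313 at 1.2-fold and 3 at 2-fold. The 30 genes named by rank kept their direction under quantile normalization and median centring. With an array left out their direction is largely fixed by how they were chosen, and leaving out either low-fat array gave the same values as the 4 arrays alone. The arrays are paired by protein level through the protein term of the model, and the labels give no replicate numbers for another pairing.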

Other observations

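Many of the strongest differences belong to probe sets with no symbol in the annotation used here. Of the 22 probe sets at 1.5-fold in both pairs, 17 (77.3%) had no single symbol, against 8356 of 20450 (40.9%) of all tested, and of the 19 with opposite signs 15 (78.9%) had none. The 4 lowest p-values belonged to probe sets 10700589 (1.473, with 1.442 and 1.505 in the NP and HP pairs), 10700517 (1.03), 10934982 (1.24) and 10701314 (-1.58). The HS levels of 10700589, 10700517 and 10934982 lay between 4.39 and 5.06, below the filter value of log2 5.14. Their HS-HF levels, between 5.50 and 6.56, helped carry them past the filter, as did low-fat levels above it. On the NP and HP low-fat arrays 10700589 stood at 5.01 and 6.09, 10700517 at 4.92 and 5.67, and 10934982 at 5.36 and 5.39.

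Genes of the unfolded protein response had opposite signs in the pairs for 18 of 22, with medians of -0.14 in the NP pair and 0.10 in the HP pair, and urea cycle genes for 5 of 7. Of all named genes, 51.6% had the same sign and nearly all others opposite signs. Of 27 acute phase genes 9 were higher in both pairs and 6 lower, where 24.7% and 26.9% of all named genes were. Il6r, a receptor of interleukin 6, differed by -0.31 (-0.15 and -0.47).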
